A study of Mus musculus with 12 samples.

Results

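The brush border is the carpet of microvilli on the apical face of enterocytes, where the last steps of digestion and the first step of uptake take place. Disaccharidases anchored in this membrane split milk sugar, sucrose, starch fragments and trehalose into single sugars, aminopeptidases trim peptides, and carriers in the same cells take up the glucose, fructose and small peptides that result. These genes are known as markers of mature enterocytes, which form as cells leave the crypt, and most of them are far more active in the small intestine than in the colon. The genes described here were taken by symbol from 2 tables of expression values: *Lct*, *Sis*, *Mgam* and *Treh* for the disaccharidases, *Anpep* for aminopeptidase N, *Slc5a1*, *Slc2a2*, *Slc2a5* and *Slc15a1* for the carriers, and *Vil1* for villin, an actin-bundling protein of the microvillus core. All 10 symbols were found once in each table, among 54532 genes.

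RNA-seq was carried out on bulk tissue in 12 libraries. Small intestinal crypts came from adult mice, 3 wild-type and 3 ieCtnnb1KO, the latter homozygous for a germline deletion of ieCtnnb1, an enhancer of *Ctnnb1* that is active in intestinal epithelium. Colon tumors came from 5-month-old mice, 3 APCmin/+ and 3 APCmin/+;ieCtnnb1KO, so that both tumor groups carried the *Apc* nonsense allele in 1 copy and only the second lacked the enhancer. Mice were on a C57BL/6 background. Crypts were shaken from EDTA-treated small intestine and passed through a cell filter that holds back villi, with no sorting of cell types, and the tumors were whole tissue. The comparison of knockout with control within each tissue asks whether genes of the mature enterocyte differ when *Ctnnb1* transcription is lowered.

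The deposited values are FPKM, in 1 table for each tissue. By name they count fragments on a gene relative to its length in kilobases and to the depth of the library. How depth entered is not given in the sources used here. One fragment per kilobase stood for an FPKM of 0.0646 in wild-type crypt replicate 1, with 14457896 fragments on genes. It stood for 0.0654 in wild-type crypt replicate 2, with 16042558. Between 14457896 and 16156712 fragments per library were assigned to genes. *Ctnnb1* had an FPKM of 121, 134 and 123 in the wild-type crypts and of 102, 104 and 105 in the ieCtnnb1KO crypts. In tumors it had 299, 363 and 358 in APCmin/+ and 279, 248 and 250 in APCmin/+;ieCtnnb1KO. Every knockout library was thus below every control library of its tissue. Of all genes tested, 5.15% in crypts and 10.6% in tumors were also lower in knockout without overlap. In the limma comparison described below, *Ctnnb1* had an adjusted p = 0.849 in crypts and 0.303 in tumors. *Xist*, which is transcribed from the inactive X chromosome, was high in 1 tumor library of each genotype, replicate 3 (FPKM 114 in APCmin/+ and 61.4 in APCmin/+;ieCtnnb1KO). It was at most 0.0623 in the other 4 tumor libraries and at most 0.0548 in crypts. *Ddx3y*, a gene of the Y chromosome, was at 0 and 0.0247 in tumor replicate 3 of APCmin/+ and APCmin/+;ieCtnnb1KO. It was at 8.65 to 12.9 in the other 4 tumor libraries and at 8.32 to 9.86 in crypts. By these genes replicate 3 of each tumor group was female, and the other tumor libraries and all crypt libraries were male.

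The brush border genes differed widely in level, and the FPKM scale corrects for gene length so that genes can be set beside each other. Over the 6 crypt libraries *Anpep* had the highest mean FPKM, 1274 ± 298 (SD, n = 6), followed by *Vil1* (503 ± 124) and *Slc5a1* (491 ± 152), whose means differed by less than their spread. *Sis* (345 ± 109) and *Mgam* (256 ± 56.5) came next, then *Lct* (98.4 ± 41.3), *Slc15a1* (92.1 ± 35.3) and *Treh* (74.9 ± 33.1), which overlapped. The facilitative carriers *Slc2a2* (40.5 ± 19.5) and *Slc2a5* (35.2 ± 13.4) were lowest, again within their spread of each other. All 10 genes were therefore well measured in crypts, with at least 981 fragments for any of them in any library.

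**Figure D1:**
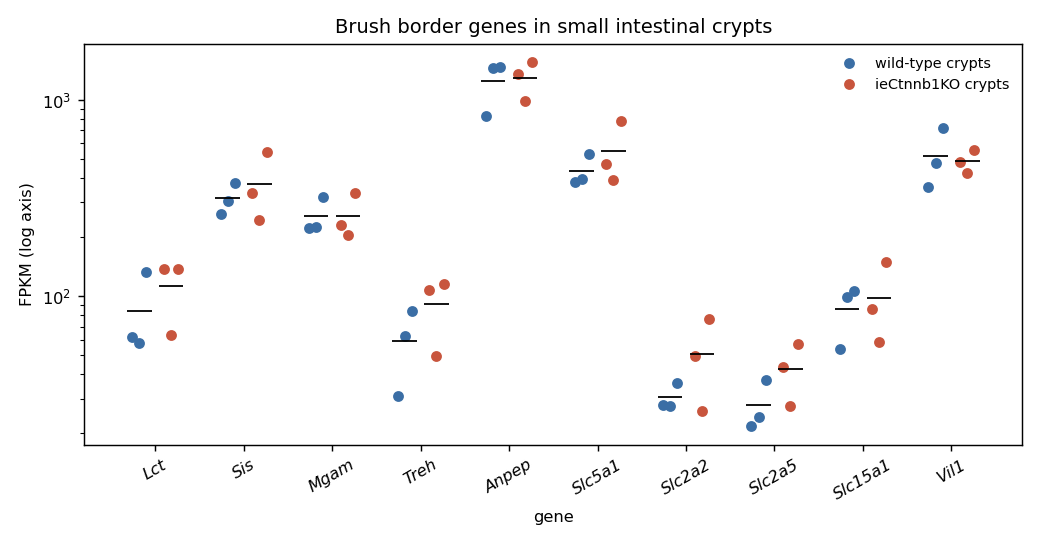
FPKM of the 10 brush border genes on a log axis in 3 wild-type (blue) and 3 ieCtnnb1KO (red) small intestinal crypt libraries; each point is a library, in the order of replicates 1 to 3 from left to right, and black lines are group means. For each of the 10 genes the points of the 2 groups overlap, and *Anpep* is highest at 825 to 1555.

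Among the disaccharidases, *Lct*, which encodes lactase, had an FPKM of 61.6, 57.5 and 132 in the wild-type crypts and of 138, 63.3 and 138 in the ieCtnnb1KO crypts. Wild-type replicate 3 was close to the upper pair of knockout libraries, and knockout replicate 2 was close to the other wild-type libraries. *Treh*, for the enzyme that splits trehalose, had 30.9, 62.6 and 83.5 against 107, 49.5 and 115. Here too knockout replicates 1 and 3 were above all wild-type libraries and knockout replicate 2 was not. *Sis*, for sucrase-isomaltase, had 262, 305 and 379 against 336, 244 and 545, and its paralog *Mgam*, for maltase-glucoamylase, had 222, 226 and 321 against 229, 204 and 335. Both of these genes were highest in knockout replicate 3 and lowest in knockout replicate 2, so that 1 group held both ends of the range.

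In limma on log2(FPKM + 0.5), the log2 fold change of knockout over wild type was 0.45 for *Lct* (95% interval -0.54 to 1.44), 0.63 for *Treh* (-0.42 to 1.69), 0.19 for *Sis* (-0.55 to 0.92) and -0.013 for *Mgam* (-0.59 to 0.56). The adjusted p from limma over all genes tested was 0.909, 0.896, 0.956 and 0.997 in the same order. The interval of *Mgam* was the narrowest of the 10 genes and still ran more than 0.5 to either side of 0.

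*Anpep*, whose product removes amino acids from the ends of peptides, had an FPKM of 825, 1452 and 1476 in the wild-type crypts and of 1353, 982 and 1555 in the ieCtnnb1KO crypts. Its low libraries were wild-type replicate 1 and knockout replicate 2, and its log2 fold change was 0.075 (95% interval -0.66 to 0.81, adjusted p = 0.987 from limma). *Slc15a1*, for the proton-coupled carrier of di- and tripeptides, had 53.6, 98.6 and 106 against 86.0, 58.3 and 150.0. The same libraries were low, with a log2 fold change of 0.14 (-0.79 to 1.07, adjusted p = 0.979 from limma).

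*Slc5a1* encodes the sodium-coupled carrier that brings glucose and galactose into the enterocyte, *Slc2a5* the apical fructose carrier, and *Slc2a2* the facilitative carrier that lets sugars leave toward the blood. FPKM of *Slc5a1* was 381, 395 and 530 in the wild-type crypts and 472, 391 and 778 in the ieCtnnb1KO crypts. That of *Slc2a2* was 27.8, 27.7 and 36.0 against 49.4, 26.0 and 76.2, and that of *Slc2a5* was 21.7, 24.3 and 37.5 against 43.4, 27.5 and 56.8. For each facilitative carrier knockout replicates 1 and 3 were above every wild-type library, while knockout replicate 2 lay just below the wild-type range for *Slc2a2* and within it for *Slc2a5*. The log2 fold change was 0.28 for *Slc5a1* (95% interval -0.40 to 0.96), 0.60 for *Slc2a2* (-0.26 to 1.46) and 0.58 for *Slc2a5* (-0.14 to 1.31). *Slc2a5* had the smallest p of the 10 genes in crypts, with an unadjusted p = 0.0978 and an adjusted p = 0.860 from limma, and an exact two-sided permutation p = 0.2, where 3 libraries against 3 cannot go below 0.1.

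*Vil1*, the structural gene of the set, had an FPKM of 358, 479 and 718 in the wild-type crypts and of 485, 426 and 556 in the ieCtnnb1KO crypts. The wild-type libraries spanned the whole range and the knockout libraries lay inside it, with a log2 fold change of -0.033 (95% interval -0.68 to 0.62, adjusted p = 0.996 from limma). The log2 fold changes of *Mgam* and *Vil1* turned to 0.13 and 0.11 when libraries were rescaled to the same total FPKM, which moved the median of all genes tested from 0.014 to 0.14. With 1 library left out, those of *Sis*, *Anpep*, *Slc5a1* and *Slc15a1* also turned, to -0.12, -0.20, -0.0027 and -0.22 at the lowest.

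**Figure D2:**
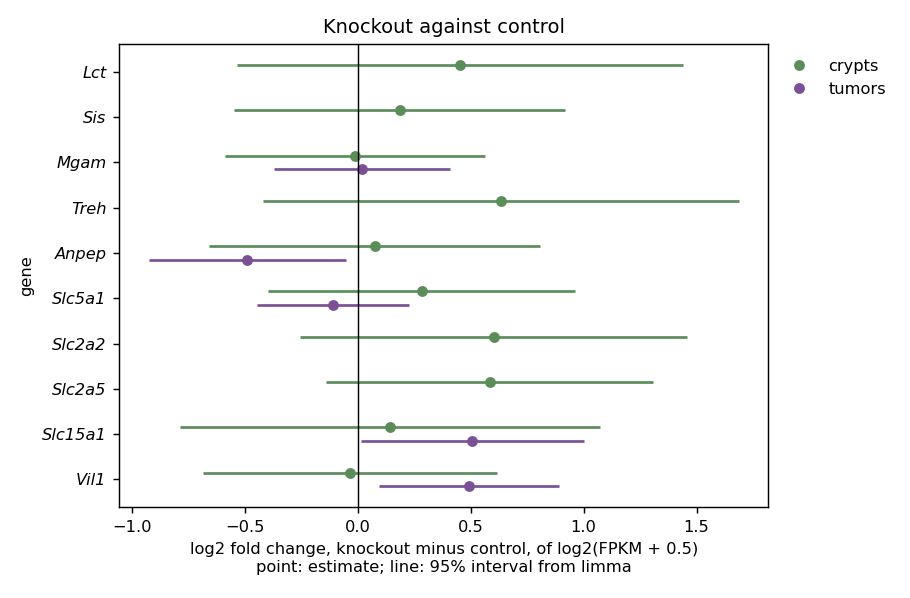
Log2 fold change of knockout over control on the scale of log2(FPKM + 0.5), with the 95% interval from limma, for the 10 brush border genes in crypts (green) and for the 5 that passed the filter on FPKM in tumors (purple). All 10 intervals in crypts include 0, and in tumors those of *Anpep*, *Slc15a1* and *Vil1* do not, before adjustment for the number of genes tested.

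Of the 10 genes, 0 had an adjusted p under 0.05 in crypts by limma, against 0 of the 14176 genes tested (0%), and voom on the recovered fragments also called 0 genes, with 805 at an unadjusted p under 0.05. At an unadjusted p under 0.05 there were 0 of the 10, against 829 of all genes tested (5.85%), 3.48% higher and 2.36% lower in knockout. This count of 0 depended on the setting: *Slc2a2* and *Slc2a5* passed that level with libraries rescaled to the same total FPKM, *Slc2a5* without wild-type replicate 3 and with the replicate number as a block, and *Treh*, *Slc2a2* and *Slc2a5* without ieCtnnb1KO replicate 2. The groups did not overlap for 0 of the 10, against 1693 of all genes tested (11.9%), 6.79% higher and 5.15% lower. The log2 fold change was above 0 for 8 of the 10 genes, with a median of 0.23, beside 52.8% of all genes tested and a median of 0.014. Without ieCtnnb1KO replicate 3 the median of the 10 was -0.036 and 4 genes were above 0. It was 0.48 without ieCtnnb1KO replicate 2, 0.13 without wild-type replicate 1 and 0.38 without wild-type replicate 3, where 3 genes of the whole table were called. Fewer cells of a type and less RNA per cell cannot be told apart in these bulk libraries.

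The brush border genes were high or low together in single libraries of both genotypes. ieCtnnb1KO replicate 3 was highest for 8 of the 10 genes, and among the 2 highest libraries for all 10. Wild-type replicate 1 was lowest for 6 genes and ieCtnnb1KO replicate 2 for 3. Averaged over the 10 genes, the deviation of log2(FPKM + 0.5) from a gene's mean over the 6 libraries came to -0.53, -0.18 and 0.27 for wild type and to 0.20, -0.39 and 0.63 for knockout. The spread within groups was accordingly wide: the pooled SD of log2(FPKM + 0.5) had a median of 0.46 over the 10 genes and of 0.22 over all genes tested. It ran from 0.34 for *Mgam* to 0.70 for *Treh*.

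**Figure D3:**
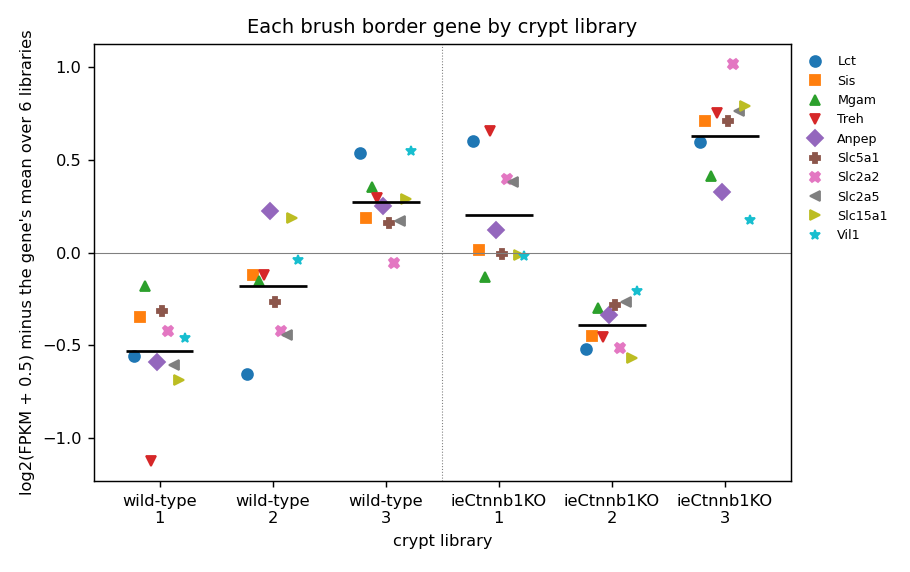
Deviation of log2(FPKM + 0.5) of each of the 10 brush border genes from its own mean over 6 crypt libraries, with black lines for the mean of the 10 genes in a library. The means of wild-type replicates 1 and 2 and of ieCtnnb1KO replicate 2 are below 0, and those of the other 3 libraries are above 0.

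Relative to *Vil1* in the same library, a comparison chosen after the values had been seen, the groups did not overlap for 1 of 9 genes. FPKM of *Slc2a5* as a percentage of that of *Vil1* was 6.06, 5.09 and 5.22 in the wild-type crypts and 8.95, 6.47 and 10.2 in the ieCtnnb1KO crypts, with every knockout library above every wild-type library (exact permutation p = 0.1, the smallest possible). The ratio overlapped between groups for each of the other 8 genes. Of all genes tested, 2.27% were higher than every wild-type library on this scale and 2.34% lower. Among the other 8 genes *Slc2a2* had the smallest exact permutation p (0.2), with 7.77, 5.79 and 5.01 against 10.2, 6.12 and 13.7.

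Markers of other cell types and regions were read in the same crypt libraries, where higher or lower in a count of genes means the sign of the log2 fold change, a difference between means of logs that can differ in sign from that between mean FPKM. Of 10 enterocyte markers, all tested, 9 had a log2 fold change above 0, among them *Apoa1*, whose mean FPKM was lower in knockout, and 3 had an unadjusted p under 0.05 (the most abundant was *Fabp2*, mean FPKM 2817). Their summed FPKM came to 3899, 5581 and 10630 for wild type and to 8649, 6593 and 9623 for knockout, and the 3 low libraries were those where the brush border genes were low. *Rbp2*, which binds retinol, had 427, 386 and 823 against 1205, 903 and 1129 (log2 fold change 1.06). *Mttp*, needed to load lipid on lipoproteins, had a log2 fold change of 0.53, and *Dgat1*, for triglyceride synthesis, of 0.49, both with groups that did not overlap. None of the 3 passed adjustment (adjusted p between 0.797 and 0.806 from limma).

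The libraries also differed in markers that vary along the gut. Of 6 proximal small intestine markers 5 were higher in knockout, 3 of them with groups that did not overlap, and their summed FPKM was 42.2, 35.9 and 41.7 in wild type and 58.7, 47.6 and 60.9 in knockout. The most abundant was *Gata4* (30.7, 20.4 and 25.8 against 37.5, 31.1 and 32.0), and *Slc46a1*, for the folate carrier, had a log2 fold change of 0.90. Of 5 ileum markers all were lower in knockout and 0 had an unadjusted p under 0.05. Their summed FPKM was 238, 1305 and 2938 in wild type and 860, 788 and 872 in knockout, led by *Fabp6* (mean FPKM 950.1), so that both the highest and the lowest library were wild type. Of 10 stomach markers 6 were tested, all lower in knockout with an unadjusted p under 0.05 from limma. *Gkn1*, *Gkn2* and *Muc6* passed the filter only through wild-type libraries, with knockout means of 0, 0 and 0.0757, so the filter in part fixed their direction. The exact permutation p was 0.4 for *Gkn1* and for *Gkn2*. The summed FPKM of the 10 markers was 207, 122 and 15.9 in wild type and 12.8, 19.7 and 10.1 in knockout. *Gkn1* and *Gkn2* were at 0 in wild-type replicate 3 and in all knockout libraries, *Tff2* was the most abundant (122, 53.6 and 1.09 in wild type), and *Muc6* had a log2 fold change of -1.59. The sum and the 6 tested markers were thus highest in wild-type replicates 1 and 2, whereas under the filter *Atp4a* was at 0.189, 0.174 and 0.0848 in wild type and 0.555, 0.492 and 0.208 in knockout, and *Gif* was highest in wild-type replicate 3 (0.913). Without both of them, a setting chosen after the data had been seen that leaves 1 wild-type library, assumed to vary like the others, the median log2 fold change of the 10 genes was -0.15 with 3 genes above 0 and 0 genes called. The share of fragments from the mitochondrial genome was 13.5%, 19.0% and 15.2% in wild type and 11.5%, 10.7% and 14.9% in knockout. The part of these markers in the results was not tested.

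Secretory lineages were read in the same libraries. All 8 Paneth cell markers had a log2 fold change below 0, among them *Ang4*, whose mean FPKM was higher in knockout, and 2 had an unadjusted p under 0.05. The summed FPKM of the 8 was 22978, 33853 and 63740 in wild type and 25301, 22349 and 25359 in knockout (most abundant *Defa24*, mean FPKM 12578). *Mmp7* was lower in all knockout libraries, with a log2 fold change of -0.72. Of 7 goblet cell markers 6 were lower (summed FPKM 6017, 9228 and 9723 against 5462, 6545 and 8292, led by *Tff3* with a mean of 2395). Of 8 enteroendocrine markers 7 were lower (286, 249.8 and 423 against 211, 273 and 276, led by *Gip* with a mean of 104), among them *Chga* (log2 fold change -0.57) and *Chgb* (-0.47). Of 5 stem cell markers 3 were higher (1025, 819 and 577 against 1026, 858 and 773, led by *Olfm4* with a mean of 789.8) and of 6 pan-epithelial markers 4 (3616, 4062 and 3953 against 3824, 4807 and 3959, led by *Krt8* with a mean of 1669). Of 6 colonocyte markers tested of 10, 5 had a log2 fold change above 0, among them *Car4* (0.92), *Slc37a2* (0.96), *Slc26a3* (0.46) and *Cyp2c55* (0.042), the last with a lower mean FPKM in knockout. *Car1* was at 0 in 5 of 6 libraries and *Scnn1g* at 0 in all (summed FPKM 629, 924 and 918 against 596, 726 and 867, led by *Guca2a*, which was lower, with a mean of 662).

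Markers of other sources were low in crypts. The summed FPKM was at most 6.31 for 9 fibroblast and smooth muscle markers (*Dcn* highest, *Col3a1* with a log2 fold change of -0.54), at most 0.883 for 4 endothelial markers (*Pecam1* highest), between 37.9 and 50.1 for 9 immune markers (*Jchain* highest, log2 fold change -0.45), between 14.1 and 34.2 for 6 tuft cell markers (*Avil* highest) and between 0.222 and 18.1 for 8 pancreatic acinar markers (*Ctrb1* highest). All of these sums overlapped between genotypes.

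Other genes that work beside the brush border set were read from 5 lists. Of 14 other brush border peptidases and phosphatases 9 were higher in ieCtnnb1KO crypts and 5 lower, with a median log2 fold change of 0.08. Among them *Akp3*, for a duodenal alkaline phosphatase, had an FPKM of 4.71, 27.4 and 17.5 in wild type and of 37.3, 34.6 and 151 in knockout. Its groups did not overlap, and its log2 fold change of 2.09 had an adjusted p = 0.811 from limma. Of 11 amino acid transporters 9 were higher and 2 lower (median 0.22). Of 12 genes of sugar handling inside the enterocyte and other sugar carriers 10 were higher and 2 lower (median 0.40). Of 18 microvillus structure genes 7 were higher and 11 lower (median -0.017), and of 10 enterocyte transcription factors 5 were higher and 5 lower (median 0.053). All of these genes passed the filter, 1 of them had an unadjusted p under 0.05 (*Akp3*), and 0 had an adjusted p under 0.05.

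In the colon tumors the brush border genes fell into 2 sets by level. *Vil1* had a mean FPKM of 112 ± 25.2 (SD, n = 6), *Mgam* 22.2 ± 3.15, *Slc5a1* 14.1 ± 1.85, *Anpep* 7.91 ± 2.09 and *Slc15a1* 3.32 ± 1.05, and these 5 genes passed the filter of a mean FPKM of at least 0.5. The other 5 did not: *Slc2a5* had a mean of 0.282, *Slc2a2* 0.0846, *Lct* 0.0611, *Treh* 0.0604 and *Sis* 0.0142.

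*Sis* was seen with 1, 0 and 1 fragments in the APCmin/+ tumors and with 0, 3 and 5 in the APCmin/+;ieCtnnb1KO tumors, and *Treh* with 3, 4 and 0 against 3, 0 and 2. *Lct* had 5, 8 and 11 fragments against 6, 2 and 5, *Slc2a2* had 7, 5 and 14 against 8, 9 and 3, and *Slc2a5* had 17, 19 and 9 against 14, 18 and 15. A count of 0 allows up to 3 fragments, which for *Sis* is an FPKM of 0.0244 to 0.0269. A difference between genotypes in *Sis* or *Treh* that stays within these few fragments was not detectable at this depth. No fold change is given for these 5 genes.

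**Figure D4:**
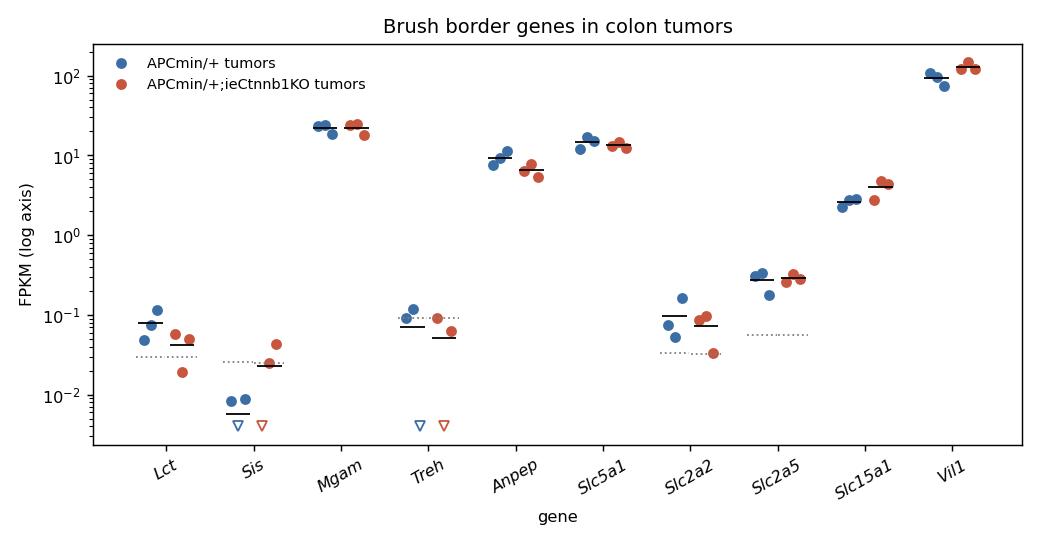
FPKM of the 10 brush border genes on a log axis in 3 APCmin/+ (blue) and 3 APCmin/+;ieCtnnb1KO (red) colon tumor libraries; points are libraries in the order of replicates 1 to 3, black lines are group means, dotted lines mark the FPKM of 3 fragments for the 5 genes under the filter, and open triangles at the bottom stand for an FPKM of 0. *Vil1* is the gene whose groups do not overlap, at 73.7 to 109 against 120 to 148.

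The 2 tables may have been normalized separately, so levels across them are set side by side as a description only. The tissues also differ in region. The mean FPKM of *Vil1* was 4.51 times as high in crypts as in tumors, and that of *Mgam* 11.5, of *Slc15a1* 27.7, of *Slc5a1* 34.8, of *Slc2a5* 125, of *Anpep* 161 and of *Slc2a2* 479 times. For *Treh* the ratio was 1239 (95% counting interval of the tumor fragments 709 to 2398), for *Lct* 1611 (1169 to 2289) and for *Sis* 24284 (13205 to 50640). These intervals cover counting error only. *Sis* and *Mgam*, paralogs that were close in level in crypts, thus stood apart in tumors, with 10 fragments of *Sis* and 18526 of *Mgam* over the 6 libraries. Fragments that fit both paralogs could be counted for either, and how such fragments were treated is not given in the sources used here.

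The promoters of *Sis*, *Mgam* and *Lct* are shown because these disaccharidase genes were all high in crypts and only *Mgam* was well above 0 in tumors. Each is the RefSeq window of 250 bases before to 50 after the start of the gene (GRCm38.p6), 5′ to 3′ on the strand of the gene. Capitals mark 2 short motifs on either strand: TTTATG or CATAAA, letters bound by CDX factors, and AGATAA or TTATCT, letters bound by GATA factors.
Sis (chr3:72967814-72968113, minus strand): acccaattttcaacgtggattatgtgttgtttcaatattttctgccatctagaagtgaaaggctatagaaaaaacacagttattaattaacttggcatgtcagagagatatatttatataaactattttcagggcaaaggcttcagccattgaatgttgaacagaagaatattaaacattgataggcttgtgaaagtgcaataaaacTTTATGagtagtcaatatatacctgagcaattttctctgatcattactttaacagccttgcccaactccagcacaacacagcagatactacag
Mgam (chr6:40628581-40628880, plus strand): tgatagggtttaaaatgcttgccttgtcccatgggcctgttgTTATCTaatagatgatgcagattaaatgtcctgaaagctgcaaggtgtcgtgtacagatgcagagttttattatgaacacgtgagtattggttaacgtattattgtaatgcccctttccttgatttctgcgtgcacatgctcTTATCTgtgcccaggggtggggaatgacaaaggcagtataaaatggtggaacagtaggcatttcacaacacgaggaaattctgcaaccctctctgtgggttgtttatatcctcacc
Lct (chr1:128328269-128328568, minus strand): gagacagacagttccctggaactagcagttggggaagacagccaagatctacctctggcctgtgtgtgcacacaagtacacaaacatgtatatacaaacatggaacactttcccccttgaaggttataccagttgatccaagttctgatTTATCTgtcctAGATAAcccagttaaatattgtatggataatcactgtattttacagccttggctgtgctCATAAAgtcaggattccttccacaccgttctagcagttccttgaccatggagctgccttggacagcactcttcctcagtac

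The *Sis* window held 1 match to the CDX letters, the *Lct* window 1 match to the CDX letters and 2 to the GATA letters, and the *Mgam* window 2 matches to the GATA letters. All 10 genes had 1 window in the table. The CDX letters were in 2 of the 10 windows (*Lct* and *Sis*) and in 11.9% of all 32851 promoter windows, and the GATA letters in 2 (*Lct* and *Mgam*) and in 11.2%. Letters of HNF4 sites, CAAAGTCC or GGACTTTG, were in 1 (*Treh*, 2 matches) and in 1.42% of all windows. The TCF/LEF letters CTTTGAT or ATCAAAG, through which β-catenin is brought to its targets, were in 0 of the 10 and in 3.73%. The motifs were chosen after the values had been seen, and a match of letters is a description and not a bound site.

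Of the GATA and CDX factors in the list of enterocyte transcription factors, *Gata6* and *Cdx1* were expressed in both tissues, while *Gata4* was close to 0 in tumors. FPKM of *Gata6*, named after its values had been seen, was 14.1 to 19.5 in crypts and 8.99 to 10.6 in tumors, and that of *Cdx1* was 98.8 to 176 in crypts and 53.5 to 97.3 in tumors. *Gata4* had a mean FPKM of 25.6 in wild-type crypts and 33.5 in ieCtnnb1KO crypts. In tumors *Gata4* was between 0 and 0.0931. *Cdx2*, named after its values had been seen, had 96.3, 99.5 and 87.0 in wild-type and 106, 91.8 and 82.3 in ieCtnnb1KO crypts, and in tumors 10.2, 2.22 and 2.01 in APCmin/+ and 7.45, 26.5 and 4.17 in APCmin/+;ieCtnnb1KO. The tumor groups of *Cdx2* overlapped, with the highest value in knockout replicate 2. Of the HNF4 factors in that list, also named after their values had been seen, *Hnf4g* was at 67.7 to 97.6 in crypts and 1.56 to 3.27 in tumors. *Hnf4a* was at 140 to 162 in crypts. In tumors *Hnf4a* had 72.5, 69.5 and 61.1 in APCmin/+ and 78.9, 102 and 74.8 in APCmin/+;ieCtnnb1KO, without overlap. The part of any of these factors in the levels was not tested.

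Within the tumors, *Vil1* had an FPKM of 109, 97.2 and 73.7 in APCmin/+ and of 122, 148 and 120 in APCmin/+;ieCtnnb1KO. All knockout libraries were above all controls (exact permutation p = 0.1). The log2 fold change was 0.49 (95% interval 0.09 to 0.89, unadjusted p = 0.0227 and adjusted p = 0.308 from limma), so the difference did not pass adjustment. *Slc15a1* had 2.26, 2.78 and 2.83 against 2.79, 4.82 and 4.45, where knockout replicate 1 lay within the control range and the other knockout libraries above it. Its log2 fold change was 0.51 (interval 0.013 to 1.0, unadjusted p = 0.0457 and adjusted p = 0.340 from limma), and 0.074 with libraries rescaled to *Vil1*, a setting chosen after the data had been seen. *Anpep* had 7.56, 9.20 and 11.2 against 6.34, 7.78 and 5.35, the only one of the 5 genes with a lower knockout mean by more than the SD of either group. Knockout replicate 2 lay just above the lowest control, and the log2 fold change was -0.49 (-0.93 to -0.05, unadjusted p = 0.0331 and adjusted p = 0.324 from limma). It was -0.23 without the replicates numbered 3, those with high *Xist*, and -0.96 with libraries rescaled to *Vil1*.

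The 2 sugar genes that passed the filter had groups that overlapped. *Mgam* had an FPKM of 23.7, 24.0 and 18.5 in the APCmin/+ tumors and of 24.4, 24.9 and 17.97 in the APCmin/+;ieCtnnb1KO tumors, with replicate 3 low in both genotypes, and a log2 fold change of 0.018 (95% interval -0.37 to 0.41) that was below 0 under each other scaling tried, from -0.058 with quantile normalization to -0.46 relative to *Vil1*. *Slc5a1* had 12.1, 16.9 and 15.1 against 13.3, 14.9 and 12.3, with the knockout range inside that of the controls and a log2 fold change of -0.11 (-0.44 to 0.23). It was further from 0 under the other scalings, at -0.22 with the same total FPKM, -0.35 with the pan-epithelial markers and -0.59 with *Vil1*, and -0.24 without control replicate 1 and -0.0075 without control replicate 2. The adjusted p from limma was 0.969 for *Mgam* and 0.728 for *Slc5a1*.

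No gene was called in tumors by limma at an adjusted p under 0.05, 0 of the 16743 tested (0%) and 0 of the brush border genes, and voom called 0 as well, with 2541 at an unadjusted p under 0.05. At that level limma gave 2421 genes (14.5%), 1417 higher (8.46%) and 1004 lower, and among the brush border genes *Slc15a1* and *Vil1* were higher and *Anpep* lower. These 3 depended on the setting. *Vil1* and *Slc15a1* did not pass that level with libraries rescaled to the same total FPKM, without the 50 highest genes or to the pan-epithelial markers, nor *Vil1* with quantile normalization or *Slc15a1* with no filter. *Anpep* did not pass it with the replicate number as a block, none of the 3 passed it without the replicates numbered 3, and each of the 3 genes missed it without at least 1 single library. The groups did not overlap for 22.1% of all genes tested, 11.4% higher and 10.6% lower, and for *Vil1* among the 5 genes that passed the filter. The median log2 fold change of all genes tested was 0.0075. With libraries rescaled to the pan-epithelial markers, the genes under that level were 296 higher and 4233 lower. Whether the fold changes of a gene differ between crypts and tumors was not tested.

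Relative to *Vil1* in the same library, again chosen after the values had been seen, 3 genes were lower in knockout tumors. FPKM of *Anpep* as a percentage of that of *Vil1* was 6.95, 9.47 and 15.2 in APCmin/+ and 5.19, 5.26 and 4.45 in APCmin/+;ieCtnnb1KO. That of *Slc5a1* was 11.1, 17.4 and 20.5 against 10.9, 10.1 and 10.2, and that of *Mgam* 21.8, 24.7 and 25.1 against 19.99, 16.8 and 14.9. The groups of these 3 ratios did not overlap (exact permutation p = 0.1 for each). The percentage for *Slc15a1* was 2.08, 2.86 and 3.85 against 2.28, 3.26 and 3.70, with groups that overlapped (exact permutation p = 0.8). On this scale 41.8% of all genes tested were lower without overlap and 0.526% higher, with *Vil1* itself higher in knockout.

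The same 5 lists were read in tumors. Of 18 microvillus structure genes 16 were tested, 11 higher and 5 lower, with a median log2 fold change of 0.17. Among them *Slc9a3r1*, for an apical scaffold protein, had 49.5, 45.0 and 45.7 in APCmin/+ and 56.6, 59.2 and 63.5 in APCmin/+;ieCtnnb1KO (log2 fold change 0.35, adjusted p = 0.269 from limma). *Cdhr5*, for a protocadherin that links microvillus tips, had 55.6, 32.6 and 35.4 against 57.5, 118 and 68.3 (0.94), and *Baiap2l1* (0.37) and the actin bundler *Pls1* (0.54) also had groups that did not overlap. Of the 5 genes of this list with an unadjusted p under 0.05, 0 were lower. Of 14 other peptidases and phosphatases 10 were tested, 8 higher and 2 lower (median 0.24), with the meprin genes *Mep1a* (0.68) and *Mep1b* (0.84) apart from the controls.

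Of 11 amino acid transporters 10 were tested, 5 higher and 5 lower (median -0.0042), with *Slc7a7* higher (0.29). Of 12 genes of sugar handling and other carriers 8 were tested, 5 higher and 3 lower (median 0.28), and 1 had an unadjusted p under 0.05, *Slc2a1*, a glucose carrier of many cell types, with groups that overlapped (54.0, 49.2 and 45.6 against 81.4, 53.7 and 70.4). Of 10 enterocyte transcription factors 9 were tested, 5 higher and 4 lower (median 0.029). *Cdx1* had 53.5, 69.2 and 56.4 against 88.2, 97.3 and 86.0 (0.60), and *Klf4* had a log2 fold change of 0.49, both without overlap. In these 5 lists 0 genes had an adjusted p under 0.05 by limma.

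**Figure D5:**
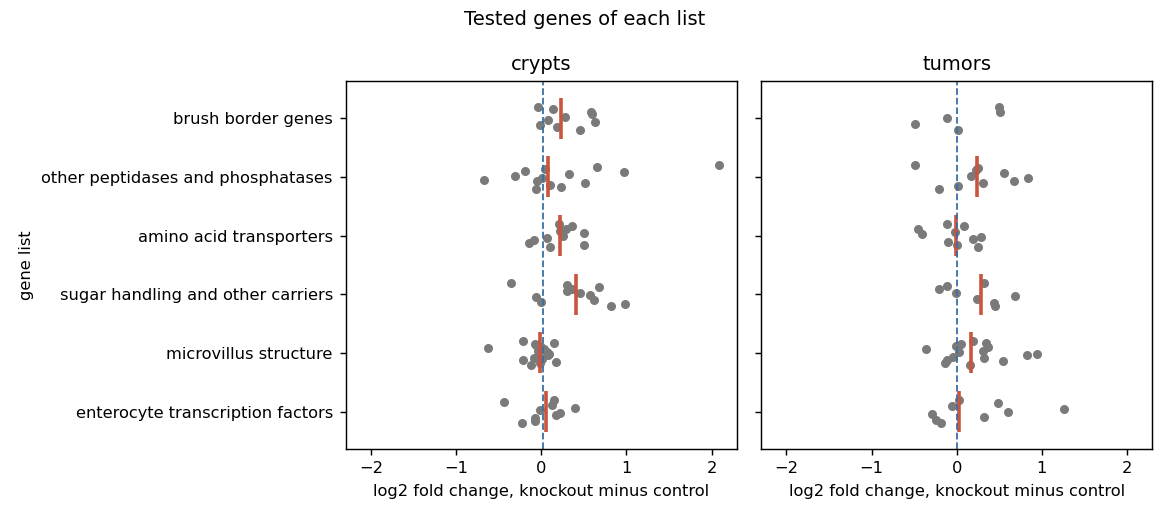
Log2 fold change of knockout over control for each tested gene (grey points) of the brush border genes and of 5 related lists, in crypts and in tumors; red bars are list medians, with none for the brush border genes in tumors, and the dashed blue line is the median of all genes tested (0.014 in crypts and 0.0075 in tumors). The 10 brush border genes have a median of 0.23 in crypts, and in tumors the 5 that were tested lie between -0.49 and 0.51.

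Marker genes of other cells were read in the same tumors, where 0 of them had an adjusted p under 0.05 by limma. All 7 goblet cell markers were higher in knockout with an unadjusted p under 0.05 and no overlap, with a summed FPKM of 1407, 1420 and 1455 in APCmin/+ and of 2689, 3222 and 2848 in APCmin/+;ieCtnnb1KO. *Spink4* was the most abundant (mean FPKM 865), and *Zg16* (log2 fold change 0.99), *Agr2* (1.03), *Muc2* (1.31) and *Tff3* (0.93) had the smallest p. All 6 pan-epithelial markers were higher without overlap (4223, 4301 and 3762 against 4985, 4798 and 5168, led by *Krt8* with a mean of 1588), *Cldn7* among them (0.28). When libraries were rescaled to these 6 markers, which moved the median of all genes tested to -0.21, the log2 fold change of *Vil1* was 0.24. Of 10 colonocyte markers 8 were higher (136, 137 and 155 against 211, 390.4 and 239, led by *Car1* with a mean of 95.5), *Guca2a* (1.13) and *Car1* (1.03) without overlap. Of 10 enterocyte markers 6 were tested and 5 of these were higher (117, 68.9 and 68.5 against 136, 153 and 138), most of it *Krt20* (mean FPKM 90.3, log2 fold change 0.96), while *Fabp1* was at 0 in 5 of 6 libraries. The part of these markers in the result for *Vil1* was not tested.

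Of 9 fibroblast and smooth muscle markers 8 were higher (summed FPKM 461, 329 and 302 against 479, 573 and 489, led by *Col1a1* with a mean of 121 and a log2 fold change of 0.67), with *Pdgfra* (0.32), *Dcn* (0.40) and *Acta2* (0.32) also without overlap. Of 4 endothelial markers 3 were higher (30.9, 29.0 and 26.1 against 33.6, 31.9 and 31.1, led by *Cdh5*), *Pecam1* among them (0.47). All 8 Paneth cell markers were higher with 0 at an unadjusted p under 0.05 (1996, 2055 and 2224 against 2967, 4751 and 1701, led by *Lyz1*). Of 6 proximal small intestine markers 4 were tested and 3 were higher (42.0, 32.2 and 28.4 against 34.4, 40.3 and 32.4, led by *Onecut2*), *Slc46a1* (0.36) and *Slc40a1* (0.51) without overlap. *Onecut2* itself was lower, at 21.1, 14.9 and 10.996 against 12.3, 7.10 and 7.72, with groups that overlapped (log2 fold change -0.75, unadjusted p under 0.05 and adjusted p = 0.324 from limma). Of 5 ileum markers 3 were tested and 2 were higher (2.80, 2.97 and 3.53 against 3.98, 3.68 and 3.86, led by *Slc10a2*), *Slc51b* (0.48) among them. Of 10 stomach markers 4 were tested, all lower (34.8, 29.8 and 29.2 against 20.5, 22.8 and 13.4, led by *Gkn3*), with *Atp4a* at -0.66. Of 8 enteroendocrine markers 6 were tested and 5 were higher, with sums that did not overlap (13.5, 15.2 and 11.7 against 16.8, 22.3 and 15.5, led by *Chgb*) and 0 genes at an unadjusted p under 0.05. Stem cell markers (80.7, 98.6 and 87.8 against 100.3, 70.3 and 81.5, led by *Smoc2*), tuft cell markers (64.3, 61.0 and 48.8 against 54.0, 34.3 and 48.3, led by *Avil*) and immune markers (302, 107 and 157 against 267, 222 and 155, led by *Jchain*) overlapped in sum. Pancreatic markers were at most 0.249 in sum, led by *Prss2*, with *Cpa1*, *Cela3b* and *Amy2b* at 0 in all libraries.

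Genes outside the set with the pattern most like it were sought over all 12 libraries, using log2(FPKM + 0.5) centred within each table and the mean of the 5 brush border genes that are at least 0.5 FPKM in both. Among 11558 candidates whose mean FPKM reached 1 in both, the highest Pearson correlations were those of *Tef* (0.957), *Dlg3* (0.951), *Snrk* (0.915), *Susd2* (0.915) and *Atp6v0a1* (0.913). They are given as a description, since libraries of a table may share their normalization. Over the 6 crypt libraries the correlations were 0.977, 0.983, 0.953, 0.947 and 0.958 in the same order. Over the 6 tumor libraries they were lower, at 0.830, 0.785, 0.702, 0.637 and 0.664.

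Some of these genes share bases with neighbours, and whether strand was used in counting is not given in the sources used here. *Lct*, *Sis*, *Mgam*, *Slc2a5* and *Slc15a1* overlap no other gene of the tables. *Treh* shares 2 bases with *Phldb1* and *Vil1* shares 49 with *Usp37*, both on the opposite strand. *Slc2a2* lies opposite the antisense gene *1700112D23Rik* (mean FPKM 0.288 in crypts), *Anpep* overlaps *Gm44974* on its own strand (7.45 in crypts), and *Slc5a1* overlaps the pseudogenes *Gm15936* and *5033423K11Rik* (1.14 and 0.234 in crypts), so that fragments there can belong to either gene. In the tables *Vil1* (ENSMUSG00000026175) lies on GRCm38 chromosome 1 from 74409376 to 74435559 on the plus strand, *Anpep* (ENSMUSG00000039062) on chromosome 7 from 79821803 to 79861059 on the minus strand, and *Slc15a1* (ENSMUSG00000025557) on chromosome 14 from 121459621 to 121505252 on the minus strand. *Sis* (ENSMUSG00000027790) lies on chromosome 3 from 72888557 to 72967863 on the minus strand and *Mgam* (ENSMUSG00000068587) on chromosome 6 from 40628831 to 40769123 on the plus strand. *Lct* (ENSMUSG00000026354) lies on chromosome 1 from 128284756 to 128328318 on the minus strand and *Treh* (ENSMUSG00000032098) on chromosome 9 from 44673233 to 44686305 on the plus strand. *Slc5a1* (ENSMUSG00000011034) lies on chromosome 5 from 33104219 to 33162870, *Slc2a2* (ENSMUSG00000027690) on chromosome 3 from 28697903 to 28731359 and *Slc2a5* (ENSMUSG00000028976) on chromosome 4 from 150119283 to 150144169, each on the plus strand.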

How the data were processed

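RNA-seq was measured in 12 libraries of small intestinal crypts and colon tumors. The methods name Hisat2 for the alignment of read pairs and featureCounts for counting, and the submitters' processing notes name mm10, cutadapt, HISAT2, Cufflinks 2.2.1 and DESeq2. The authors deposited FPKM per gene and library, in a table for each tissue. How FPKM were scaled and whether strand was used are not given in the sources used here. Positions are those of GRCm38: start and end equal those in GENCODE M21 for 53499 of the 54409 shared genes, the 10 brush border genes included.

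Dividing the product of FPKM and length by 1 step per library gave whole numbers for 100% of non-zero values (tolerance 0.05), and so 14457896 to 16156712 fragments per library. Intervals and floors of 3 fragments cover counting error only. Knockout was compared with control by limma (3.58.1, under R 4.3.3), with a variance trend and values as log2(FPKM + 0.5). Genes whose mean FPKM over a table's 6 libraries reached 0.5 were tested, with Benjamini-Hochberg adjustment over all genes tested and a threshold of 0.05. Folds on this scale understate changes of low genes. Single genes were also compared by an exact two-sided permutation test over 20 assignments. The procedure was tested on simulated data, and the outcome is not reported here. Other scalings, filters, pseudocounts and left-out libraries were tried, as were voom and the replicate number as a block.

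The genes and lists were chosen with earlier results of these data known. From each list up to 4 genes per direction with the smallest unadjusted p under 0.05 and groups that do not overlap were named, with the most abundant gene of each marker list and up to 5 genes most alike in pattern. Figures were drawn with matplotlib 3.10.9, and promoter sequences are from RefSeq. A further factor and its motif are not reported here.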

Additional observations from a re-analysis of the deposited data

How the results depend on the processing

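In crypts 0 genes were called under the pseudocounts, filters, scalings, fits and left-out libraries that were run, except without wild-type replicate 3, where 3 were, so that leaving out 1 library gave 0 to 3. In tumors the count was 0 except with limma without a variance trend, where it was 1, and with libraries rescaled to *Vil1*, a setting chosen after seeing the data, where it was 16. Leaving out 1 tumor library gave 0 to 0. With the replicate number as a block 0 genes were called in crypts and 0 in tumors. Over all genes tested, deviations of same-numbered libraries correlated at -0.05, -0.12 and 0.04 in crypts and at 0.05, -0.09 and 0.05 in tumors. Such correlations cannot decide whether libraries were matched by number, and in tumors replicate 3 of both genotypes had high *Xist*. At an unadjusted p under 0.05 the main scaling gave 494 genes higher and 335 lower in crypts, against 734 and 159 with the same total FPKM, 285 and 508 without the 50 highest genes and 201 and 406 with the pan-epithelial markers. In tumors it gave 1417 and 1004, against 731 and 1785, 730 and 1953, and 296 and 4233 in the same order, and 1116 and 1282 with quantile normalization. The cause of these differences was not tested.

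The median log2 fold change of the 10 genes in crypts was 0.23. It was 0.38 with libraries rescaled to the same total FPKM, which moved the median of all genes from 0.014 to 0.14, and with 1 library left out it ran from -0.04 without knockout replicate 3 to 0.48 without knockout replicate 2. Without wild-type libraries 1 and 2 it was -0.15. In tumors the median over all 10 genes shows nothing about stability, since the pseudocount holds the 5 genes under the filter near 0. It was -0.013, with 0.12 under quantile normalization and -0.14 with libraries rescaled to *Vil1*, which moved the median of all genes to -0.43.

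Reversals of sign in crypts came mostly from left-out libraries. Without wild-type libraries 1 and 2, a setting chosen after seeing the data, *Lct* was at -0.31, *Sis* at -0.10, *Anpep* at -0.21, *Slc5a1* at -0.017 and *Slc15a1* at -0.22, while *Mgam* and *Vil1*, already below 0, were at -0.36 and -0.56. *Slc15a1* was at -0.038 without both libraries numbered 3, where *Vil1* was at 0.13. With the same total FPKM *Mgam* was at 0.13 and *Vil1* at 0.11, and *Mgam* was at 0.020 rescaled to *Vil1*. With 1 crypt library left out *Sis* ran from -0.12 to 0.46, *Mgam* from -0.22 to 0.16, *Anpep* from -0.20 to 0.26, *Slc5a1* from -0.0027 to 0.49, *Slc15a1* from -0.22 to 0.46 and *Vil1* from -0.27 to 0.23. *Slc2a2*, *Slc2a5* and *Treh* were above 0 under every alternative that was run, but their size moved. With 1 library left out *Slc2a2* ran from 0.24 to 1.01, *Slc2a5* from 0.35 to 0.86, *Treh* from 0.23 to 1.02 and *Lct* from 0.24 to 0.83. Without wild-type libraries 1 and 2 *Slc2a2* was at 0.35, *Slc2a5* at 0.12 and *Treh* at 0.024. With the replicate number as a block *Slc2a5* had an unadjusted p = 0.0273 and an adjusted p = 0.950 from limma. In tumors *Mgam* was at -0.0897 with the same total FPKM, at -0.0906 without the 50 highest genes, at -0.058 with quantile normalization, at -0.23 rescaled to the pan-epithelial markers and at -0.46 rescaled to *Vil1*, and from -0.10 to 0.17 with 1 library left out. *Vil1*, *Slc15a1*, *Anpep* and *Slc5a1* in tumors kept their direction under the alternatives that were run. With 1 library left out they ran from 0.33 to 0.61, 0.37 to 0.72, -0.62 to -0.35 and -0.24 to -0.0075. With the pan-epithelial markers they were at 0.24, 0.29, -0.73 and -0.35, and *Vil1* was at 0.30 with quantile normalization.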
